A study of Mus musculus with 4 samples.

Results

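The genes described here encode interferon-inducible GTPases of the mouse: 4 guanylate-binding proteins (Gbp2, Gbp3, Gbp5 and Gbp7), 3 regulatory immunity-related GTPases (Irgm1, Irgm2 and Igtp, the last also known as Irgm3) and 3 effector immunity-related GTPases (Iigp1, Tgtp1 and Tgtp2). They were taken by symbol from the 24421 gene rows of the count tables. All 10 were found, and all 10 were among the 13669 genes kept after low counts were filtered out.

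Their expression was measured by bulk RNA-seq in 4 J558 allografts on day 6, of which 2 came from vehicle-treated and 2 from TAK-931-treated mice. J558 is a BALB/c plasmacytoma line, here inoculated under the skin of female BALB/c mice 4 weeks of age. TAK-931, an inhibitor of the replication kinase CDC7, was given by mouth at 60 mg/kg once daily, and vehicle mice received 0.5% methylcellulose. Every mouse carried a tumour and was dosed, so no untreated allograft enters the comparison.

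The host was immunocompetent, and the RNA came from the whole tumour. Fewer cells of a type and less RNA per cell therefore cannot be told apart in these values. The labels name the cell type as B lymphocyte. All 8 markers of plasma cells and J558 exceeded 3 counts in every library. Mature B cell markers were mixed: Pax5, the defining factor of that lineage, had 0 counts in all 4 libraries, while Ms4a1 had 252 to 904 counts and Cd22 had 22 to 791. The summed level of the 5 mature B cell markers was 1.77-fold (TAK-931-1) and 2.05-fold (TAK-931-2) that of Vehicle-2. Total counts were between 16487902 and 19589339 per library. TAK-931-1 stood apart: its summed level of 9 T cell markers was 1217 CPM (counts scaled to the size of the library), against 77.5 in TAK-931-2 and 17.6 to 29.6 in the vehicle-treated allografts. Each result below is therefore also given by library.

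Interferon gamma, made mainly by T cells and NK cells, acts through a receptor with the kinases JAK1 and JAK2. Its target promoters carry gamma-activated sites, and the IRF factors bind interferon-stimulated response elements. The GTPases are among the most strongly induced targets in mouse cells, where they assemble on vacuoles that hold bacteria or parasites. Guanylate-binding proteins (GBPs) break such vacuoles and expose their contents to inflammasomes. Effector immunity-related GTPases (IRGs) coat and disrupt the vacuole membrane, and the regulatory IRGM proteins sit on host membranes and keep the effectors inactive there.

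The promoters are shown first because the members share short letters in them. The genes were chosen as interferon-induced, and promoters of interferon targets carry such elements, so the shares below are not independent of that choice. RefSeq promoter sequences (GRCm38.p6, from 250 bases before to 50 after a start site) were held for 9 of the 10 members, the exception being Iigp1. An interferon-stimulated response element, searched as GAAANNGAAA on both strands, was found in 9 of their 10 promoters, at least 1 for each of the 9 genes. The promoter without it was the second of the 2 held for Gbp3. The element was present in 3.44% of the 32851 promoters in the table. A gamma-activated site, searched as TTCNNNGAA, was found in 6 of the 10 promoters (those of Gbp5, Gbp7, Irgm2, Igtp, Tgtp1 and Tgtp2), against 8.30% of all promoters. Both elements stood together in those 6 promoters and in 0.454% of all promoters. A match is a description of the letters and does not show that a factor bound there. The stretches around the response element, all ending before the start site, are printed in the direction of transcription with the matched letters in capitals.
Gbp2 (chr3:142620579-142620628, plus strand): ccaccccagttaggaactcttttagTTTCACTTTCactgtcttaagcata
Gbp3 (chr3:142559974-142560029, plus strand): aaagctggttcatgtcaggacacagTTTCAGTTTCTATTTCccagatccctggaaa
Gbp5 (chr3:142496744-142496793, plus strand): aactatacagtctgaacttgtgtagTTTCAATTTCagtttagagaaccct
Gbp7 (chr3:142530258-142530307, plus strand): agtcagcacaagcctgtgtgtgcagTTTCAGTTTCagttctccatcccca
Irgm1 (chr11:48871421-48871475, minus strand): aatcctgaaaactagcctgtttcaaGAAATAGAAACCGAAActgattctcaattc
Irgm2 (chr11:58214888-58214937, plus strand): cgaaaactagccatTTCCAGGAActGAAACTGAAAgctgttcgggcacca
Igtp (chr11:58199497-58199546, plus strand): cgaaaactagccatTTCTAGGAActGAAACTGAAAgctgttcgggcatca
Tgtp1 (chr11:48992299-48992348, minus strand): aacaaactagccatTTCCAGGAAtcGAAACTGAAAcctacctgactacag
Tgtp2 (chr11:49064258-49064307, minus strand): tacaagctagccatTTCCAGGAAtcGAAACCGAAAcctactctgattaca

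The last 4 stretches carry the same arrangement, a gamma-activated site, 2 further bases and then the response element. This spacing was noticed in the printed letters and then counted: it occurred in 5 of all 32851 promoters (0.0152%), which belonged to Irgm2, Igtp, Tgtp1, Tgtp2 and Gm12185, another immunity-related GTPase gene. The printed stretches of Irgm2 and Igtp are nearly the same throughout, and those of Tgtp1 and Tgtp2 are much alike. Tgtp1 and Tgtp2 also share 75-base stretches of transcript with Gm12185, so the 5 may not be independent occurrences. In the 4 GBP genes the response element lay in the reverse orientation. Gbp3 and Irgm1 each held a pair of overlapping response elements. Gbp5 and Gbp7 each held 2 gamma-activated sites, farther from the response element, and their upstream 250 bases are given whole for that reason.
Gbp5 (chr3:142496684-142496933, plus strand): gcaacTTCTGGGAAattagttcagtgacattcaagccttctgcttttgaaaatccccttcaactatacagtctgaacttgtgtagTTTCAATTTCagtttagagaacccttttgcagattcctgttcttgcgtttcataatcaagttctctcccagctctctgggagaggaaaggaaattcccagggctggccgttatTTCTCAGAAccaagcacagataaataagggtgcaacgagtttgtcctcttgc
Gbp7 (chr3:142530086-142530335, plus strand): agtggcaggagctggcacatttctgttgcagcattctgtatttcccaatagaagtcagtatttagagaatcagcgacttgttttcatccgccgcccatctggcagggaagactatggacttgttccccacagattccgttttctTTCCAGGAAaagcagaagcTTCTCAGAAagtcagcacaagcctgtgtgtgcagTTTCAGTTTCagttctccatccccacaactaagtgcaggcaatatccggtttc

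All 10 GTPase genes had a higher CPM in both TAK-931-treated allografts than in either vehicle-treated allograft, and the lowest level of each was in Vehicle-2. No difference passed an adjusted edgeR p of 0.05. The vehicle-treated tumours differed by more than 2-fold in 7 of the 10 genes. Groups that did not overlap in this direction were found for 30% of the genes tested (4096 of 13669). CPM values are scaled by the trimmed mean of M-values (TMM).

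The 4 GBP genes lie in a cluster on chromosome 3 (mm10), with Gbp5 at 142496934 to 142522344, Gbp7 at 142530336 to 142550151, Gbp3 at 142560052 to 142573212 and Gbp2 at 142620663 to 142638008. Gbp2, whose protein is targeted to Toxoplasma vacuoles, had 29.4 (Vehicle-1) and 3.89 CPM (Vehicle-2) under vehicle, with 179 (TAK-931-1) and 70.7 CPM (TAK-931-2) after treatment. The treated tumours lay above both vehicle tumours, and Vehicle-2 lay far below Vehicle-1. Gbp5, whose protein promotes inflammasome assembly, had 16.9 and 2.52 CPM in the vehicle-treated allografts, then 113 in TAK-931-1 and 60.1 in TAK-931-2. It had the widest gap between Vehicle-1 and TAK-931-2 among the 10 genes, with a ratio of 3.55. Gbp3 had 26.9 (Vehicle-1) and 10.3 CPM (Vehicle-2) under vehicle, with 181 (TAK-931-1) and 62.6 CPM (TAK-931-2) after treatment. Gbp7 had 20.6 and 5.87 CPM in the vehicle-treated allografts, 165 in TAK-931-1 and 57.3 in TAK-931-2. These GBP genes followed the same order of tumours as Gbp2, with a narrower gap between the vehicle-treated tumours.

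The 3 IRGM genes lie on chromosome 11, with Irgm1 at 48865249 to 48871346, Igtp at 58199556 to 58207592 and Irgm2 beside it at 58214977 to 58222783. Irgm1, which is needed for resistance to mycobacteria in mice, had 39.2 (Vehicle-1) and 25.8 CPM (Vehicle-2) under vehicle, with 284 (TAK-931-1) and 110 CPM (TAK-931-2) after treatment. The vehicle-treated tumours were close here, and both treated tumours were above them. Igtp had 60.4 and 40.7 CPM in the vehicle-treated allografts, 270.4 in TAK-931-1 and 103 in TAK-931-2. Irgm2 had 50.7 (Vehicle-1) and 36.5 CPM (Vehicle-2) under vehicle, with 125 (TAK-931-1) and 62.8 CPM (TAK-931-2) after treatment. Irgm2 was the member whose groups came closest: TAK-931-2 was 1.24-fold Vehicle-1.

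Of the effector IRG genes, Iigp1 lies on chromosome 18 (60376029 to 60392629), and Tgtp1 (48985329 to 48992246) and Tgtp2 (49057196 to 49064212) lie near Irgm1 on chromosome 11. Iigp1, which encodes Irga6, had 49.2 (Vehicle-1) and 4.43 CPM (Vehicle-2) under vehicle, with 223 (TAK-931-1) and 111 CPM (TAK-931-2) after treatment. The gap between the vehicle-treated tumours was wide for Iigp1, and both treated tumours lay above it. Tgtp1 had 13.3 and 1.198 CPM in the vehicle-treated allografts, 47.1 in TAK-931-1 and 24.3 in TAK-931-2. Tgtp2 had 17.95 (Vehicle-1) and 2.52 CPM (Vehicle-2) under vehicle, with 101 (TAK-931-1) and 42.0 CPM (TAK-931-2) after treatment. Tgtp1 and Tgtp2 are near-identical copies that encode Irgb6. Of all 75-base windows of their GENCODE transcripts, 77.2% for Tgtp1 and 81.4% for Tgtp2 also occur in another gene, mostly the other copy. Uniquely placed reads were counted, so the counts of both rest on the remaining sequence, and which copy gave them is uncertain. The same share was 0% for Irgm1 and Iigp1 and at most 11.3% (Gbp7) for the other members.

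**Figure D1:**
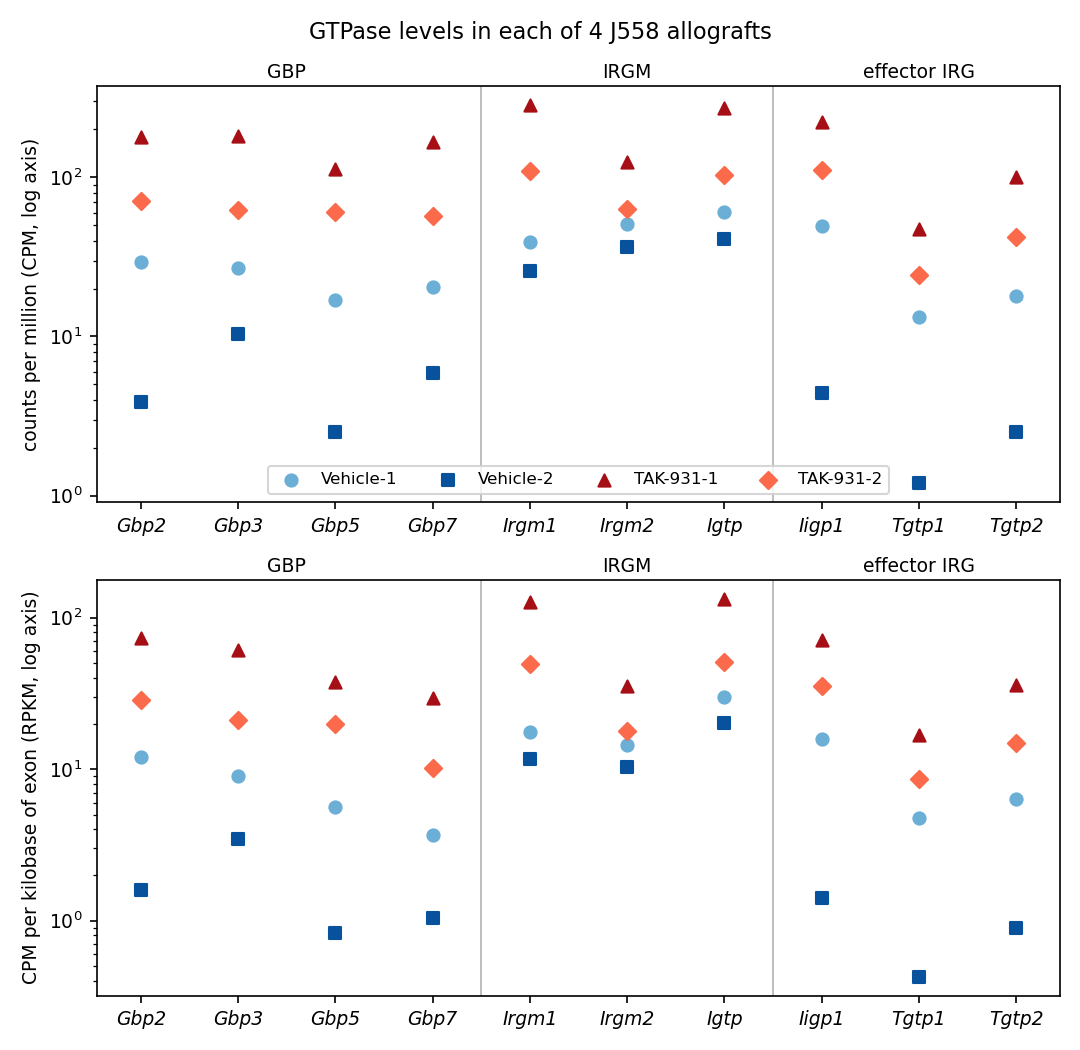
Level of each GTPase gene in each of the 4 allografts, in CPM (upper panel) and in CPM per kilobase of exon (lower panel), both on log axes; each point is 1 library. In every gene the order from low to high is Vehicle-2, Vehicle-1, TAK-931-2, TAK-931-1, and the vehicle points lie close together only for Irgm1, Irgm2 and Igtp.

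The fitted log2 fold change of TAK-931 over vehicle was positive for all 10 genes, with a median of 2.68, against 0.02 over all genes tested. It was highest for Gbp5 (3.15, SE 1.00) and Gbp7 (3.07, SE 0.87), followed by Gbp2 (2.90, SE 1.10), Tgtp2 (2.80, SE 1.06) and Gbp3 (2.71, SE 0.76). It was 2.64 (SE 1.19) for Iigp1, 2.598 (SE 0.57) for Irgm1 and 2.29 (SE 1.17) for Tgtp1. The lowest values belonged to Igtp (1.89, SE 0.56) and Irgm2 (1.10, SE 0.42). A log2 fold change over 1.5 was reached by 9 of the 10 members and by 16.8% of the genes tested.

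By edgeR's quasi-likelihood test, 0 of the 10 members passed an adjusted p of 0.05, as did 0% of the 13669 genes tested. The adjusted p was between 0.275 and 0.328. At an unadjusted p under 0.05 there were 5 members (Gbp3, Gbp5, Gbp7, Irgm1 and Igtp), against 11.6% of the genes tested in this direction. The smallest unadjusted edgeR p, 0.00866, belonged to Irgm1, whose vehicle-treated tumours differed by 1.52-fold. DESeq2 called 8 members at its adjusted p under 0.05, all but Irgm2 and Tgtp1, where it called 9.78% of the 12874 genes it gave an adjusted p in this direction. For any single gene, an exact permutation test of 2 against 2 libraries cannot go below 0.333.

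The size of the difference changed with the library left out. Without Vehicle-1 the median log2 fold change of the GTPase members was 4.52, and without Vehicle-2 it was 2.01. Without TAK-931-1 it was 1.89, and without TAK-931-2 it was 3.18. In the fits without Vehicle-1, Iigp1 reached 5.23 (SE 0.97), Gbp5 5.09 (SE 0.93) and Gbp2 4.99 (SE 0.96), whereas Irgm1 reached 2.92 (SE 0.89) and Irgm2 1.36 (SE 0.75). Without TAK-931-1, Irgm2 had 0.52 (SE 0.19) and Igtp 1.02 (SE 0.26). With the lone TAK-931-2 assumed to vary like the vehicle pair, edgeR called 1 member, Irgm1 (log2 fold change 1.76, SE 0.25, adjusted p 0.0126). With the lone TAK-931-1, edgeR called Irgm1, Irgm2 and Igtp, and the log2 fold change of Irgm1 was 3.10 (adjusted p 0.00161). Both fits called many genes in all, 3996 and 8424. Those called higher were 12.6% of the genes tested without TAK-931-1 and 28.2% without TAK-931-2, so 1 and 3 of the 10 members were near these shares. The direction was positive for each of the 10 genes in each of the 13 alternative fits. This was largely set in advance, because the groups did not overlap with all libraries in place.

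**Figure D2:**
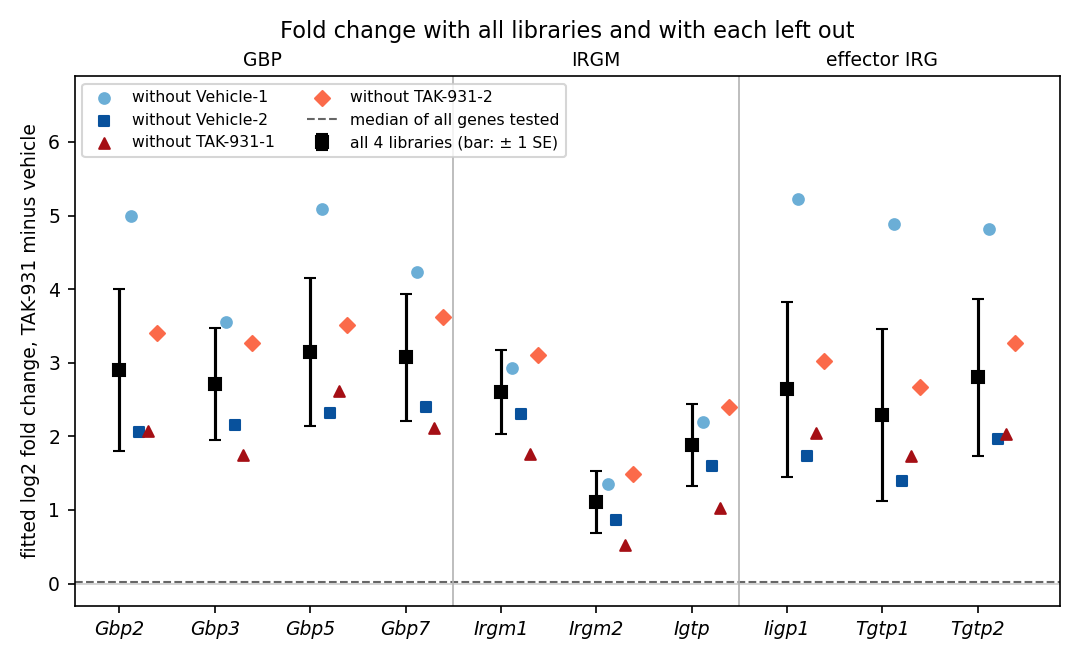
Fitted log2 fold change of each GTPase gene (TAK-931 minus vehicle) with all 4 libraries (black squares, bars ± 1 SE) and with each library left out (coloured points); the dashed line is the median of all genes tested, 0.02. Leaving out Vehicle-1 lifts the GBP and effector IRG genes most, up to 5.23 for Iigp1, and leaving out TAK-931-1 gives the lowest value for Irgm2, 0.52.

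The IRGM genes differed less between the vehicle-treated tumours than the other members did. Vehicle-1 exceeded Vehicle-2 by 1.39-fold for Irgm2, 1.48-fold for Igtp and 1.52-fold for Irgm1. The ratio was 2.61 for Gbp3, 3.503 for Gbp7, 6.74 for Gbp5 and 7.56 for Gbp2. It was 7.14 for Tgtp2, 11.1 for Tgtp1 and 11.1 for Iigp1. On the log2 scale, Vehicle-1 was more than 1 above Vehicle-2 for all 7 members outside the IRGM class and for 3.54% of the genes tested. The median over all genes tested was -0.01. With 1 library on each side, this ratio has no replicate check. Between the treated tumours, TAK-931-1 exceeded TAK-931-2 by 1.88-fold (Gbp5) to 2.90-fold (Gbp3), and the IRGM genes, at 1.98 to 2.62, lay within that range.

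**Figure D3:**
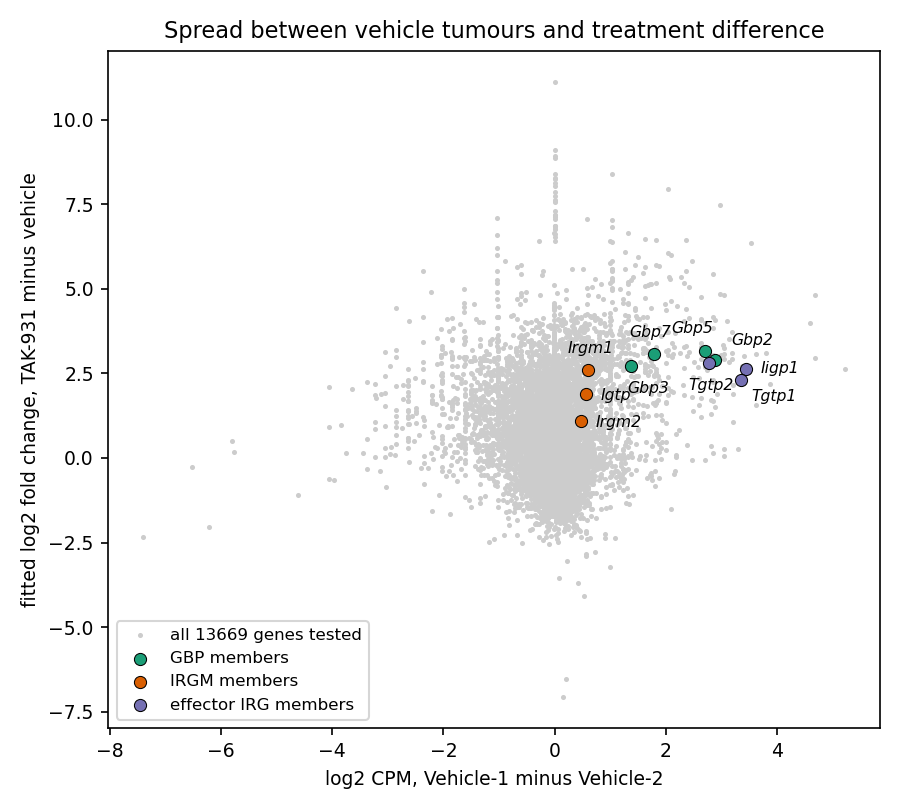
Difference in log2 CPM between the vehicle-treated tumours (horizontal, Vehicle-1 minus Vehicle-2) and fitted log2 fold change of TAK-931 over vehicle (vertical) for 13669 genes (grey) and the 10 GTPase genes (coloured by class). The 3 IRGM genes sit below 1 on the horizontal axis, with a median of 0.57, while the other 7 members sit beyond 1.

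The same order of tumours, Vehicle-2 lowest, then Vehicle-1, TAK-931-2 and TAK-931-1, held for all 10 members and for 12.7% of the genes tested. This order was looked for after the values were seen. Because Vehicle-1 was high among the vehicle tumours, the step from Vehicle-1 to TAK-931-2 was the smallest separation between the groups. It was between 1.24-fold (Irgm2) and 3.55-fold (Gbp5), with Igtp at 1.71, Tgtp1 at 1.82, Iigp1 at 2.26 and Gbp2 at 2.40. From Vehicle-2 to TAK-931-2, the step was between 1.72-fold for Irgm2 and 25.04-fold for Iigp1.

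Levels were compared between genes per kilobase of exon (RPKM, from the exon lengths in the count tables). In vehicle-treated allografts, Igtp had the highest level with 24.97 ± 6.89 RPKM (SD, n = 2), and its range did not overlap that of Irgm1, with 14.6 ± 4.26. Irgm2 followed with 12.4 ± 2.87, and from Irgm1 downwards each neighbour in the order overlapped the next. The remaining members ran from 8.58 ± 10.1 RPKM for Iigp1 through 6.79 ± 7.36 for Gbp2 to 2.35 ± 1.85 for Gbp7. In Vehicle-2, the 3 IRGM genes had 10.4 to 20.1 RPKM, and no other member exceeded 3.47 (Gbp3).

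In TAK-931-treated allografts the order was partly different. Igtp (92.3 ± 58.5 RPKM) and Irgm1 (88.4 ± 55.2) kept the first places, Iigp1 (53.4 ± 25.3) and Gbp2 (50.9 ± 31.2) came next, and Tgtp1 was last with 12.7 ± 5.74 (SD, n = 2 each). All neighbours in this order overlapped. For Tgtp1 and Tgtp2, uniquely placed reads were divided by the whole exon length although most of it is shared, so their RPKM, their places and the share of the effector IRG genes may be too low. Irgm2 stood in place 3 in Vehicle-2 and place 4 in Vehicle-1, against place 8 in TAK-931-1 and place 7 in TAK-931-2. The IRGM genes held 81.3% of the summed RPKM of the 10 genes in Vehicle-2, 52.0% in Vehicle-1, then 47.7% and 46.0% in the treated pair. The effector IRG genes held 5.29% of it in Vehicle-2 and between 19.9% and 23.0% in the other 3 tumours. Vehicle-2 was thus the tumour with a different make-up of the family, and Vehicle-1 was nearer to the treated tumours in this respect.

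The rest of the family was examined in a list of 18 further symbols, of which 17 were in the tables. All 7 other GBP genes passed the filter and lay above both vehicle tumours in both treated tumours, as did 30% of all genes tested, with 0 genes at an adjusted edgeR p under 0.05. The median log2 fold change, other GBP genes, was 3.51, and it was 5.94 without Vehicle-1 and 2.29 without TAK-931-1. Gbp11 (10 and 0 counts under vehicle) and Gbp10 (94 and 2) passed the filter only with a treated tumour, so the count and the median are descriptions. Over the genes with at least 10 counts in every library the median was 3.37. Gbp4 had 53.0 and 10.96 CPM in the vehicle-treated allografts, 406 in TAK-931-1 and 139 in TAK-931-2. Gbp2b, formerly named Gbp1, had 54.5 and 8.27 CPM, then 309 and 99.3, in the same order. Gbp10 reached 94 and 2 counts under vehicle, against 1358 (TAK-931-1) and 312 (TAK-931-2). Gbp9 had a close vehicle pair, with 5.45 and 5.03 CPM, and it reached 76.5 and 25.9 CPM in the treated tumours.

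Of the 10 other IRG genes, 8 passed the filter, 7 of these did not overlap between groups (30% of all genes tested), and the median log2 fold change, other IRG genes, was 3.02, or 2.09 without TAK-931-1. Some of these passed the filter through the treated tumours, such as F830016B08Rik with 8 and 2 counts under vehicle and 335 and 67 after treatment, so the count and the median are descriptions. Over the genes with at least 10 counts in every library the median was 2.19. Ifi47, which encodes Irgd, had 25.9 and 4.91 CPM in the vehicle-treated allografts, 179 in TAK-931-1 and 70.2 in TAK-931-2. Gm12250, which encodes Irgb10, had 15.997 and 12.04 CPM, then 75.01 and 46.7, and its vehicle pair differed by 1.33-fold. Irgq, a family member that is not known as an interferon target, had 14.3 and 14.3 CPM, then 22.1 and 13.6, and its groups overlapped. Irgc1, a testis gene, had 0 counts in all 4 libraries, which allows up to 3 read pairs per library. Since both mates seem to have been counted, that is 6 counts, or 0.316 to 0.359 CPM.

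Of the other interferon-induced GTPases, Mx1 and Mx2 passed the filter, and 4 very large inducible GTPase symbols (Gvin1, Gm4070, Gm8979 and Gm17757) had 0 counts throughout. The annotated spans of these 4 overlap on the minus strand of chromosome 7. Reads there may not have been assigned to any of them, so the 0 counts do not show absence of expression. Mx1, a target of type I and type III interferon, had 6.28 and 5.69 CPM in the vehicle-treated allografts, 53.9 in TAK-931-1 and 23.8 in TAK-931-2. The fitted change of 2.70 (log2, SE 0.51) was near that of Gbp3, while its vehicle tumours differed by 1.10-fold only. Mx2 had 1.42 and 1.14 CPM, then 11.6 and 6.12. The vehicle pair was thus close for both Mx genes, as it was for Gbp9.

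The interferon gamma route was compared next, in a list of 11 genes that all passed the filter. All 11 lay above both vehicle tumours in both treated tumours, against 30% of all genes tested. At an unadjusted edgeR p under 0.05 there were 8, against 11.6% of all genes tested in this direction, and 0 at an adjusted p under 0.05. Ifng itself was read 32 and 2 times under vehicle, then 516 (TAK-931-1) and 112 times (TAK-931-2), the order of tumours found in the GTPase genes. With 2 counts in Vehicle-2, Ifng passed the filter only with a treated tumour, so its order and its place in these counts are descriptions. Irf1, an interferon-induced transcription factor, had 68.1 and 53.4 CPM under vehicle, then 260.3 (TAK-931-1) and 140.3 (TAK-931-2). Its vehicle tumours differed by 1.28-fold, less than those of the GBP members.

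Irf8 (34.5 and 12.3 CPM in vehicle, 301 and 83.2 in TAK-931-1 and TAK-931-2) and Ciita (7.23 and 1.26, then 110 and 38.9) had wider vehicle gaps. Irf8 is a factor of myeloid and B lineage cells, and Ciita drives MHC class II genes. The receptor chain Ifngr1 was near the vehicle level in TAK-931-2 (34.2 CPM against 29.4 and 29.9) and was high in TAK-931-1 alone (188). Jak2 had a log2 fold change of 0.24 (SE 0.22). The median log2 fold change, interferon-gamma route, was 1.81, or 1.07 without TAK-931-1. In the type I interferon route (7 of 8 genes tested), the median was 0.92 and 6 genes did not overlap, beside the same 30%. Irf7 had 62.4 and 51.7 CPM in vehicle, 569 in TAK-931-1 and 155 in TAK-931-2, whereas Irf9 had 70.5 and 76.6, then 71.2 and 49.6. Ifnb1 was counted 6 times, all in Vehicle-1.

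Partners of the GTPases were less uniform. Of 13 genes of ATG8 conjugation and adaptors, which place GBP and IRG proteins on vacuoles, 3 lay above both vehicle tumours in both treated tumours and 5 lay below both. Over all genes tested, 30% lay above in this way and 32.7% below (4474 of 13669), so both counts were near or under the background. Their median log2 fold change was 0.06, and it was between -0.06 and 0.16 with each library left out in turn. Trim21, a ubiquitin ligase that interferon induces, was the exception in size, with 6.81 and 4.19 CPM in vehicle, 31.7 in TAK-931-1 and 17.3 in TAK-931-2. Atg5 had 76.5 and 77.7 CPM, then 43.4 and 50.1.

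All 8 inflammasome genes passed the filter and 7 did not overlap between groups, against 30% of all genes tested, with a median log2 fold change of 1.91, or 0.92 without TAK-931-1. Casp4, which encodes caspase-11, had 4.09 and 2.34 CPM in vehicle, 32.0 in TAK-931-1 and 11.9 in TAK-931-2. Nlrp3 had 1.54 and 0.839 CPM, then 15.2 and 5.60. Aim2, a DNA sensor, differed little, with 63.3 and 59.4 CPM against 90.8 and 73.5. Of 5 genes for prenylation, the lipid tail that Gbp2 and Gbp5 carry, 3 lay below both vehicle tumours in both treated tumours, against the same 32.7% of all genes, and 1 lay above. Fnta had 93.4 and 85.3 CPM in vehicle, 42.0 in TAK-931-1 and 53.2 in TAK-931-2. None of these partner genes passed an adjusted edgeR p of 0.05.

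Markers of several host cell types, though not of all, moved with the GTPases, and their part in the difference was not tested. All 9 T cell markers lay above both vehicle tumours in both treated tumours, as did 7 of 8 macrophage markers, 3 of 4 NK cell markers, 6 of 7 fibroblast markers, 4 of 5 dendritic cell markers and 30% of all genes tested. Of the NK cell markers, Klrb1c (9 and 0 counts under vehicle, 52 and 20 after treatment) passed the filter through the treated tumours. The T cell markers Cd3e, Cd3g, Cd247, Cd5 and Cd8a and the NK cell markers Klrd1 and Ncr1 had under 10 counts in Vehicle-2. So did the dendritic cell marker Clec9a, and Cd209a had 6 counts in Vehicle-1. These also passed the filter only with a treated tumour, so the counts for these 3 cell types are descriptions. Only 2 of 6 endothelial markers lay above both vehicle tumours in both treated tumours, and their sum in TAK-931-2 was 0.929-fold that of Vehicle-2. Of 3 neutrophil markers tested, 1 did, and S100a8 and S100a9 had 0 and 2 counts in TAK-931-2. From Vehicle-2, the summed CPM of the GBP members was 4.16-fold for Vehicle-1, 11.1-fold for TAK-931-2, then 28.3-fold for TAK-931-1. The effector IRG members were 9.88-fold, 21.8-fold and 45.5-fold in the same order, and the IRGM members 1.46-fold, 2.68-fold and 6.59-fold. The summed T cell list was 1.68-fold, 4.403-fold and 69.1-fold. Between the treated tumours, the T cell list differed by 15.7-fold and the sum of the 10 GTPases by 2.40-fold.

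The macrophage list was 1.14-fold, 2.87-fold and 17.6-fold the level of Vehicle-2, and the NK cell list was 1.79-fold, 2.42-fold and 9.09-fold, in the same order. Between the vehicle tumours, the NK cell list had 30.5 CPM in Vehicle-1 against 17.0 CPM in Vehicle-2, the T cell list 29.6 against 17.6 and the macrophage list 299 against 262. Cd2 and Klrk1 gave most of the T cell and NK cell sums there, and most other markers of these cells differed more. The median log2 difference, Vehicle-1 minus Vehicle-2, was 2.00 over the T cell markers, 2.00 over the NK cell markers and 2.24 over the GBP members. It was 3.36 for the effector IRG members, 0.57 for the IRGM members and 0.14 for the macrophage markers. The T cell and NK cell markers had few counts: Vehicle-1 against Vehicle-2 gave 32 against 6 for Cd3e, 44 against 2 for Cd3g, 29 against 2 for Cd8a and 46 against 6 for Ncr1. In Vehicle-2 these stood at or under the floor of 6 counts, against 42 to 172 counts for the GBP members, so the marker medians are imprecise. Cd3d (12 against 20) and Cd4 (30 against 58) had fewer counts in Vehicle-1. The plasma cell and J558 list was 0.945-fold for Vehicle-1, 1.33-fold for TAK-931-2, then 0.467-fold for TAK-931-1. Its markers did not move together in TAK-931-2, where Jchain (8117 CPM against 5076 and 5653) and Irf4 (1669 against 737 and 761) were above both vehicle tumours. Prdm1 (222 against 172 and 166), Tnfrsf17 (57.3 against 45.6 and 42.9) and Trap1a (1234 against 1126.5 and 1094) were above both as well. Sdc1 (587 against 695 and 691), Xbp1 (971 against 1059 and 1058) and Mzb1 (776 against 798 and 811) were below both. Of the skeletal muscle markers, all 4 were highest in TAK-931-1, where their sum was 504 CPM against 8.34 to 78.9 in the other tumours.

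**Figure D4:**
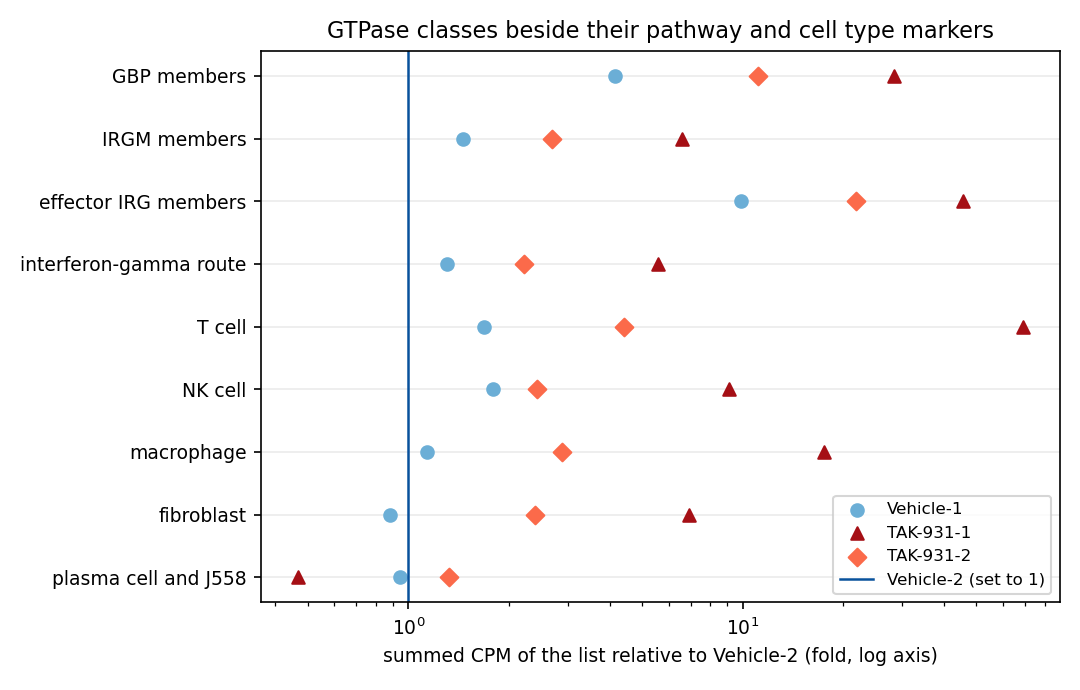
Summed CPM of each GTPase class, of the interferon gamma route and of 5 cell type marker lists (T cell, NK cell, macrophage, fibroblast, plasma cell and J558) in each tumour, relative to Vehicle-2 (vertical line) on a log axis. Vehicle-1 lies well to the right of Vehicle-2 for the GBP (4.16-fold) and effector IRG members (9.88-fold) but not for the macrophage list (1.14-fold), and TAK-931-1 is farthest right in every list plotted but that of plasma cells and J558. Other marker lists are not plotted, and the mature B cell list was higher in TAK-931-2 (2.05-fold) than in TAK-931-1 (1.77-fold).

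The genes whose profile over the 4 libraries was most like the family's were ranked by the distance between log2 CPM profiles, each centred on its own mean, among 9607 genes that are no member and had a mean log2 CPM over 3. The nearest was Dnase1l3 (distance 0.394, in log2 units over 4 libraries), a DNase of dendritic cells and macrophages, with 22.3 and 4.43 CPM in the vehicle-treated allografts, 79.4 in TAK-931-1 and 40.5 in TAK-931-2. Slamf8 (0.403), Ifi204 (0.481), Frmd4a (0.550), Ifi47 (0.594) and Irf8 (0.598) followed, then Gbp4 (0.599), Gbp2b (0.637), Ifi44l (0.641) and Slc15a3 (0.655). The median distance over these genes was 3.41. Among the members, Gbp7 lay nearest to the family mean (0.444) and Irgm2 farthest (2.05), farther than any of these 10 genes. The 10 genes include 3 further family members, Ifi47, Gbp4 and Gbp2b. With 4 libraries, likeness of this kind is a description of these tumours.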

How the data were processed

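Per the labels, the authors extracted RNA from whole J558 allografts and deposited gene counts and exon lengths for each library. The submitters' processing notes name STAR 2.6.1c, featureCounts and mm10. Counts were mostly even (17.9% to 23.9% of counts from 1 to 20 were odd), so both mates of a pair seem to have been counted. That only uniquely placed reads were kept is read from the name of the deposited count column. Strand handling was not given in the sources used here. From the deposited counts, edgeR 4.0.16 (R 4.3.3) was run with TMM scaling, a minimum count of 10 and the robust quasi-likelihood test with Benjamini-Hochberg adjustment over 13669 genes. CPM and RPKM were computed from the same scaling. DESeq2 1.42.0, limma-voom 3.58.1, other scalings and filters, a replicate block, halved counts and each library left out were the alternatives. The edgeR step was tested on simulated data. All members and the genes of the related lists may be named, with the 10 genes nearest to the family's mean profile (log2 CPM with a prior count of 2). Members and lists were chosen with earlier results of these data known. The labels do not say how the libraries of a group were separated beyond their numbers, so p-values measure the spread between these samples. Intervals were not computed, and floors (3 read pairs, 6 counts) cover counting error only. The age of the mice is taken from the study's reporting summary.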

Additional observations from a re-analysis of the deposited data

How the results depend on the processing

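In every alternative, all 10 GTPase genes had a positive log2 fold change and groups that did not overlap. Leaving a library out or changing the test cannot by itself make separate groups overlap, so this outcome was largely set in advance. Their median log2 fold change was 2.68 with all libraries and between 1.89 and 4.52 with each library left out, the highest without Vehicle-1. edgeR called 0 genes at an adjusted p of 0.05 with all libraries (2475 at an unadjusted p under 0.05), and between 0 and 8424 with each library left out. DESeq2 called 1411 genes (3213 unadjusted) and limma-voom 0 (1956 unadjusted). The cause was not tested. A fit with the replicate number as a block called 144 genes, 6 members among them (Gbp2, Gbp3, Gbp5, Gbp7, Irgm1 and Tgtp2). The numbers do not establish a pairing: the labels name no shared litter or day, and the deviations of same-numbered libraries had a correlation of 0.0041 over all genes. With 2 libraries a group, the spread of each gene is poorly known, and Tgtp1, with 20 counts in Vehicle-2, has the least depth among the members.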
